A study of Mus musculus with 13 samples.

Results

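The genes of MHC class II antigen presentation were followed through lung RNA-seq of control and bleomycin-treated mice. The members are H2-Aa and H2-Ab1, the alpha and beta chains of I-A; H2-Eb1, the beta chain of I-E; Cd74, the invariant chain; H2-DMa and H2-DMb1, which encode H2-DM; and Ciita, the class II transactivator. They were taken by symbol, and all 7 were present among the 20270 genes listed and among the 15315 genes that had enough counts to be tested.

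The 13 lung libraries fell into 3 groups. Controls were 4 C57BL/6J wildtype (WT) mice that received the saline vehicle (replicates 3, 21, 24 and 26). The WT bleomycin group held 5 C57BL/6J mice (replicates 4, 2, 5, 4-B2 and 7), and the CB1R KO bleomycin group held 4 Cnr1-/- mice on the C57Bl/6J background (replicates 8, 9, 10 and 11), which lack the cannabinoid receptor CB1R. Bleomycin was given to both treated groups once, oropharyngeally, at 1 U per kg, 14 days before the lungs were taken, and the C57BL/6J mice were 13-week-old males; age and sex of the Cnr1-/- mice are not given in the sources used here. WT bleomycin replicates 4 and 4-B2 share a number, and the labels do not say how they are related. They were counted as separate samples. Their log2 values differed more (SD of the difference 0.27) than those of any other pair in that group (0.20 to 0.25). That distance cannot show whether they came from separate mice. The same number of members was called without either. No library of a CB1R KO mouse on saline was analysed here, so the effect of the genotype alone cannot be told apart from its effect under bleomycin.

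MHC class II molecules show peptides from endocytosed proteins to CD4+ T cells. The alpha and beta chains assemble in the endoplasmic reticulum with the invariant chain, which blocks the groove and carries the complex to endosomes, where cathepsins cut it down to the fragment CLIP. H2-DM then removes CLIP and selects stably binding peptides, and H2-DO, made of H2-Oa and H2-Ob, holds H2-DM back, chiefly in B cells. Transcription of the whole set depends on CIITA, a coactivator that does not bind DNA itself but docks on the RFX, CREB and NF-Y proteins bound to the X and Y boxes of class II promoters. In the lung, dendritic cells, B cells, subsets of macrophages and type II alveolar cells carry class II. Mice of the H2b haplotype, C57BL/6J included, do not make the I-E alpha chain, so the H2-Eb1 transcript does not give I-E at the cell surface, and H2-Ea was not listed in the deposited tables.

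Promoters were read to describe the class II letters of genes that moved in opposite directions. RefSeq (GRCm38.p6) windows of the 250 bases before a transcription start matched 4 of the 7 members, with 5 windows, and 4 further class II genes with 1 window each. They were searched, on both strands, for GNAAC, the core of the X box, followed after 25 to 40 bases (start to start) by GATTGG, the Y box; these letters and the spacing were chosen after the promoters had been read. The pair was found in 0.788% of the 32851 promoter windows of the table. GNAAC alone is common (79.6% of windows) and GATTGG less so (14.6%). The stretches shown hold the pair in capitals, and the first 3 genes rose with bleomycin while H2-Ob fell and H2-Oa did not pass the test.
H2-Aa: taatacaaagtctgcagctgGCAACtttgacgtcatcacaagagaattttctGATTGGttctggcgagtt
H2-Eb1: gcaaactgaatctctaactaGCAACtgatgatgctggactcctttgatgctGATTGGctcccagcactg
H2-DMb1: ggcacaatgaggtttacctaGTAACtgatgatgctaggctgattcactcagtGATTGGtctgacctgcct
H2-Ob: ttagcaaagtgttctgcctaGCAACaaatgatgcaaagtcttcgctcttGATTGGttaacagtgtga
H2-Oa: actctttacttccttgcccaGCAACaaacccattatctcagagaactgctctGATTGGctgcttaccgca

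In GRCm38.p6 the H2-Aa stretch is chr17:34287855-34287924 on the minus strand. The others lie on the plus strand, H2-Eb1 at chr17:34305756-34305824, H2-DMb1 at chr17:34153077-34153146, H2-Ob at chr17:34238798-34238864 and H2-Oa at chr17:34092283-34092352. The GNAAC core began 81 bases before the start in H2-Aa, 91 in H2-Eb1, 94 in H2-DMb1, 87 in H2-Ob and 76 in H2-Oa. GATTGG followed 32 bases later in H2-Aa, H2-DMb1 and H2-Oa, 31 bases later in H2-Eb1 and 29 bases later in H2-Ob. H2-Eb2 also held the pair, so it occurred in some risen members and in some genes that did not rise. The letters and spacing were chosen after these promoters had been read, so this is a description and not a test. No window was found for H2-Ab1, Cd74 or Ciita. H2-DMb2 held each box but not the pair at this spacing, and neither window of H2-DMa held the pair, which says only that these letters are not at this spacing in those windows.

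Class II transcripts were counted deeply. Total estimated counts were 14615904 to 16662580 in 12 libraries and 53463884 in CB1R KO replicate 11. Cd74 ranked between 13 and 47 by TPM among the 20270 genes of each library, H2-Aa between 53 and 147, H2-Ab1 between 68 and 199, and Ciita between 5076 and 7708. Sftpc, the type II cell surfactant gene, ranked 2 in every library, as befits lung. Cnr1, the targeted gene, was counted in all groups (1.62 to 4.10 CPM in control, 3.46 to 6.96 in WT bleomycin and 2.47 to 5.62 in the libraries labelled CB1R KO). CB1R KO differed from WT bleomycin in Cnr1 by -0.53 on the log2 scale (interval -1.13 to 0.08, edgeR's quasi-likelihood test, adjusted p = 0.367). Gene-level counts do not show where in Cnr1 the reads lie, so they do not check the genotype, and directions between the bleomycin groups rest on the labels.

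The first question was what bleomycin did to class II transcripts in WT lungs. Of the 7 members, 6 rose (p adjusted by Benjamini-Hochberg under 0.05 in edgeR's quasi-likelihood test), by 1.45- to 1.76-fold, and 0 fell. For each of these 6, every WT bleomycin library lay above every control library. Among all genes tested, 25.0% were called higher and 48.9% were called in either direction, and the groups of 40.3% did not overlap. The median log2 fold change was 0.67 over the members and -0.01 over all genes tested. In whole lung, a change in the number of class II cells and a change in the RNA per cell cannot be told apart.

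H2-Ab1, the beta chain of I-A, had the largest rise of the members in WT bleomycin lungs. Its CPM (counts scaled to the TMM library size) were 485, 404, 428 and 362 in control replicates 3, 21, 24 and 26, and 831, 640.0, 705, 746 and 782 in WT bleomycin replicates 4, 2, 5, 4-B2 and 7. In CB1R KO bleomycin replicates 8, 9, 10 and 11 they were 600.2, 579, 812 and 866. The lowest bleomycin library was therefore above the highest control library in both genotypes, and within the CB1R KO group replicates 10 and 11 stood above 8 and 9. The log2 fold change was 0.82 in WT bleomycin against control (standard error 0.13, edgeR's quasi-likelihood test, adjusted p = 0.00011) and 0.77 in CB1R KO bleomycin against control (standard error 0.13, adjusted p = 0.000556).

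H2-Aa, which pairs with H2-Ab1 in I-A, had 538, 451, 513 and 423 CPM in the control libraries, in the same order. WT bleomycin libraries had 901, 727, 660.2, 719 and 757 CPM, and CB1R KO bleomycin libraries 708, 648, 848 and 945 CPM. No bleomycin library reached down to the control range. H2-Aa rose by 0.65 on the log2 scale in WT bleomycin lungs (standard error 0.12, edgeR's quasi-likelihood test, adjusted p = 0.000437) and by 0.71 in CB1R KO bleomycin lungs (standard error 0.12, adjusted p = 0.00059), both against control.

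H2-Eb1, a beta chain without its alpha partner in this strain, moved with the I-A chains. Its control libraries held 133, 94.1, 136 and 98.6 CPM, its WT bleomycin libraries 241, 194, 174, 189.8 and 203 CPM, and its CB1R KO bleomycin libraries 178, 168, 229 and 171 CPM. All 9 bleomycin libraries were above the highest control library. The log2 fold change was 0.80 in WT bleomycin (standard error 0.13, edgeR's quasi-likelihood test, adjusted p = 0.000197) and 0.69 in CB1R KO bleomycin (standard error 0.14, adjusted p = 0.00151) against control. Replicate 11 of the CB1R KO group, the highest for H2-Aa and H2-Ab1, was near the bottom of the group for H2-Eb1.

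**Figure D1:**
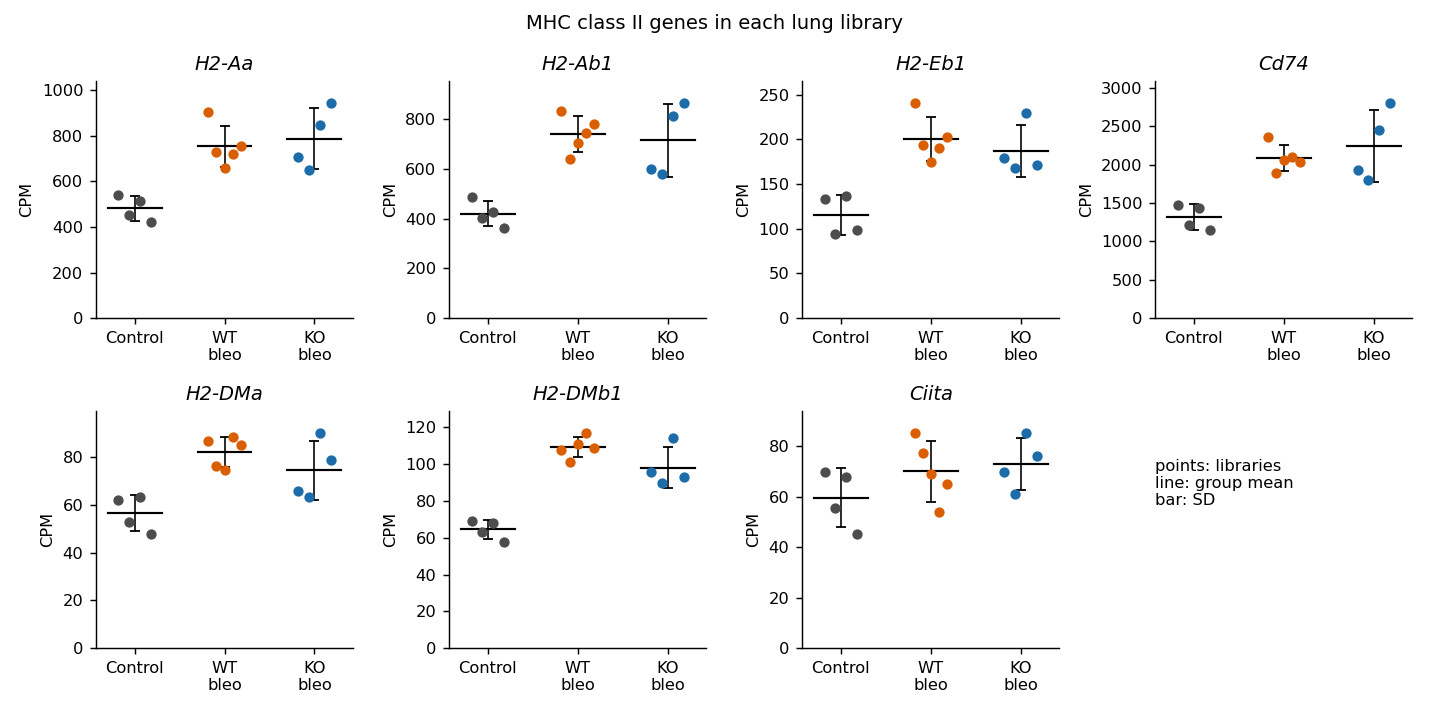
CPM of the 7 class II genes in each library, with a panel per gene, a vertical axis from 0 and libraries grouped as control (4), WT bleomycin (5) and CB1R KO bleomycin (4). Points are libraries, lines are group means and bars are SD. The bleomycin libraries lie above the control libraries without overlap for every gene except Ciita.

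Cd74, the invariant chain, was the most abundant member on the length-scaled TPM scale, at 1721 ± 249 TPM in the 4 control, 2773 ± 266 TPM in the 5 WT bleomycin and 3043 ± 585 TPM in the 4 CB1R KO bleomycin lungs (mean ± SD). In CPM the control libraries held 1477, 1211, 1436 and 1145, the WT bleomycin libraries 2355, 1895, 2065, 2102 and 2031, and the CB1R KO bleomycin libraries 1923, 1805, 2454 and 2807. The groups separated as they did for the chains, and CB1R KO replicate 11 was the highest of all libraries. Cd74 rose by 0.67 on the log2 scale in WT bleomycin (standard error 0.13, edgeR's quasi-likelihood test, adjusted p = 0.000573) and by 0.77 in CB1R KO bleomycin (standard error 0.13, adjusted p = 0.000522) against control.

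H2-DMa and H2-DMb1 encode the peptide editor. H2-DMb1 had 69.1, 62.9, 68.1 and 57.8 CPM in control, 108, 101, 111, 117 and 109 CPM in WT bleomycin, and 95.6, 89.7, 114 and 92.6 CPM in CB1R KO bleomycin libraries. Its WT bleomycin libraries were the most tightly grouped of any member, and it had the lowest adjusted p of the members (log2 fold change 0.76, standard error 0.08, edgeR's quasi-likelihood test, adjusted p = 3.04e-06). In CB1R KO bleomycin against control its log2 fold change was 0.60 (standard error 0.08, adjusted p = 7.63e-05 by the same test). H2-DMb1 shares 37.6% of its distinct 31-base words with its neighbour H2-DMb2 in the GENCODE M21 protein-coding transcripts, so the split of reads between these near-copies is uncertain. The other members share at most 1.46% of such words with any other gene.

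H2-DMa had 62.0, 52.8, 63.3 and 47.7 CPM in control, 86.5, 76.0, 74.4, 88.0 and 85.0 CPM in WT bleomycin, and 65.8, 63.3, 90.0 and 78.5 CPM in CB1R KO bleomycin libraries. The groups did not overlap, but the lowest CB1R KO library equalled the highest control library to 3 digits. The rise was 0.54 on the log2 scale in WT bleomycin (standard error 0.11, edgeR's quasi-likelihood test, adjusted p = 0.00106) and 0.40 in CB1R KO bleomycin (standard error 0.12, adjusted p = 0.0153). The latter call was lost without control replicate 26 (0.32, adjusted p = 0.0506 by the same test), without CB1R KO replicate 10 (0.30, adjusted p = 0.0516) and with the 10 libraries whose labels are in lower case (0.33, adjusted p = 0.063).

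Ciita, the coactivator on which the other members depend, was the exception. Its CPM were 69.9, 55.4, 67.9 and 45.0 in control, 85.1, 77.1, 69.1, 53.8 and 64.9 in WT bleomycin, and 69.9, 60.9, 85.2 and 76.1 in CB1R KO bleomycin libraries. The groups overlapped. The log2 fold change against control was 0.23 in WT bleomycin (95% confidence interval -0.08 to 0.55, edgeR's quasi-likelihood test, adjusted p = 0.205) and 0.29 in CB1R KO bleomycin (interval -0.03 to 0.62, adjusted p = 0.149). With the style of the sample labels as a term, Ciita passed in WT bleomycin (0.30, adjusted p = 0.0332 by the same test). On the TPM scale Ciita was at 17.2 ± 3.08 in the 4 control, 20.4 ± 4.61 in the 5 WT bleomycin and 22.3 ± 3.71 in the 4 CB1R KO bleomycin lungs (mean ± SD), the lowest of the members.

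The second question was whether loss of CB1R changed class II transcripts under bleomycin. None of the 7 members differed between CB1R KO and WT bleomycin lungs (0 called, and 0 at an unadjusted p under 0.05, which 17.0% of all genes reached, by edgeR's quasi-likelihood test; 0 called by DESeq2 and by limma), and the groups of 0 members were free of overlap. Among all genes tested, 0.979% were called and 5.60% did not overlap. The fold of CB1R KO over WT bleomycin ranged from 0.897 for H2-DMb1 to 1.08 for Cd74. The 95% confidence intervals of the 7 log2 fold changes lay within -0.38 and 0.37, so larger differences than that were outside the interval of every member.

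H2-DMb1 came nearest to a difference (log2 fold change -0.16, interval -0.32 to 0.01, edgeR's quasi-likelihood test, unadjusted p = 0.0599, adjusted p = 0.318). H2-DMa was at -0.14 (interval -0.37 to 0.09), H2-Eb1 at -0.10 (-0.38 to 0.17) and H2-Ab1 at -0.05 (-0.32 to 0.22). H2-Aa was at 0.06 (-0.19 to 0.31), Ciita at 0.06 (-0.25 to 0.37) and Cd74 at 0.11 (-0.16 to 0.37). Without CB1R KO replicate 11 the signs of H2-Aa and Cd74 turned (-0.03 and -0.02).

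Against control, CB1R KO bleomycin lungs therefore showed 6 of 7 members higher (of all genes tested, 35.4% were called, 19.0% were called higher, and 33.5% did not overlap). The same 6 genes had groups without overlap. This comparison shares the control libraries with that of WT bleomycin and is given beside it, not as a separate line of evidence. The median log2 fold change of the members was 0.69, against -0.01 over all genes tested.

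**Figure D2:**
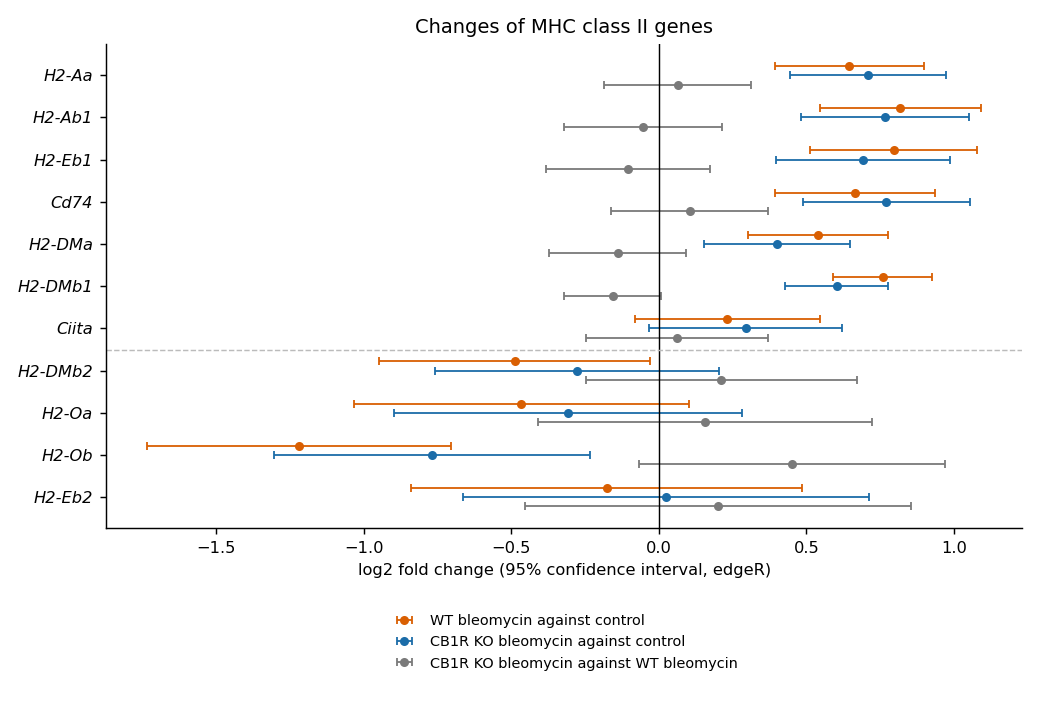
Log2 fold changes of the 7 members (above the dashed line) and of 4 other class II genes (below it), with 95% confidence intervals from edgeR, for the 3 comparisons. The intervals of 6 members lie above 0 in both bleomycin groups against control, those of CB1R KO against WT bleomycin include 0 for every gene shown, and H2-Ob lies below 0 in both bleomycin groups.

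Class II genes outside the member list were not called higher. Of 4 tested, 0 rose and 1 fell in WT bleomycin against control (median log2 fold change -0.48). The same counts held in CB1R KO bleomycin against control (median -0.29). Of all genes tested, 25.0% and 19.0% were called higher, and 23.9% and 16.3% lower. Counts over 4 genes therefore do not set this list apart. H2-Ob, the beta chain of the H2-DM inhibitor H2-DO, had 65.7, 34.1, 39.0 and 29.2 CPM in control, 28.6, 19.0, 12.1, 14.7 and 15.7 CPM in WT bleomycin, and 25.4, 22.6, 24.1 and 26.4 CPM in CB1R KO bleomycin libraries. Every bleomycin library was below every control library. H2-Ob fell by 1.22 on the log2 scale in WT bleomycin (standard error 0.24, edgeR's quasi-likelihood test, adjusted p = 0.000773) and by 0.77 in CB1R KO bleomycin lungs (standard error 0.25, adjusted p = 0.0274).

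Control replicate 3 held the highest H2-Ob value. Without it the log2 fold change of H2-Ob was -0.92 in WT bleomycin (adjusted p = 0.00238, edgeR's quasi-likelihood test) and -0.46 in CB1R KO bleomycin (adjusted p = 0.111), and the second call was also lost without CB1R KO replicate 9 (adjusted p = 0.0596), replicate 10 (adjusted p = 0.0621) or replicate 11 (adjusted p = 0.0517), and with limma on log2 TPM at pseudocounts of 1 (adjusted p = 0.0931) and 0.1 (adjusted p = 0.112). Between CB1R KO and WT bleomycin H2-Ob differed by 0.45 (interval -0.07 to 0.97, adjusted p = 0.366).

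H2-Oa, the partner of H2-Ob, had 11.8, 6.31, 8.32 and 4.70 CPM in control, 8.11, 3.77, 5.75, 5.19 and 5.37 CPM in WT bleomycin, and 5.36, 4.52, 7.39 and 7.64 CPM in CB1R KO bleomycin libraries. The groups overlapped (log2 fold change -0.47, standard error 0.27, edgeR's quasi-likelihood test, adjusted p = 0.162 in WT bleomycin against control). H2-DMb2, the near-copy of H2-DMb1, had 61.5, 35.0, 34.6 and 29.2 CPM in control and 42.0, 28.7, 21.7, 24.3 and 26.2 CPM in WT bleomycin libraries, where H2-DMb1 had risen (log2 fold change -0.49, adjusted p = 0.0732 by the same test). H2-DMb2 was called lower in 2 of 24 alternatives, without WT bleomycin replicate 4 (-0.67, adjusted p = 0.0131 by edgeR) and without control replicate 26 (-0.62, adjusted p = 0.0334), and was at -0.20 without control replicate 3 (adjusted p = 0.377). H2-Eb2, a low class II beta gene, was between 4.82 and 14.6 CPM in all libraries and did not pass in any comparison.

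These genes are neighbours. In RefSeq (GRCm38.p6) 14 protein-coding genes lie between H2-Oa and H2-Eb2 on chromosome 17, in the order H2-Oa, Brd2, H2-DMa, H2-DMb2, H2-DMb1, Psmb9, Tap1, Psmb8, Tap2, H2-Ob, H2-Ab1, H2-Aa, H2-Eb1 and H2-Eb2, while Ciita is on chromosome 16 and Cd74 on chromosome 18. All 14 were tested, and in WT bleomycin against control 6 were higher and 1 was lower. Of all genes tested, 25.0% were called higher and 23.9% lower there, so these counts do not set the region apart. The genes called higher were members and Psmb8. H2-Ob, which fell, lies next to H2-Ab1, which rose. H2-DMb2, which did not pass, sits between the risen H2-DMa and its near-copy H2-DMb1. Of the class I processing genes inside the region, Psmb8, an immunoproteasome subunit, rose by 0.29 on the log2 scale (adjusted p = 0.0458, edgeR's quasi-likelihood test). Psmb9 (-0.04), Tap1 (0.07) and Tap2 (-0.07) did not pass.

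**Figure D3:**
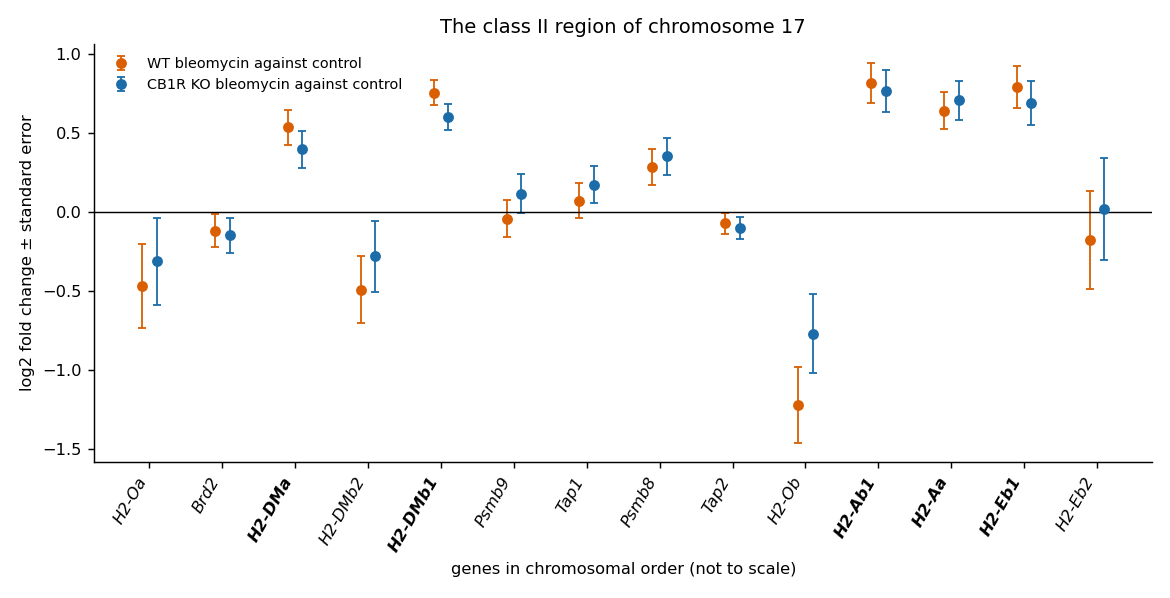
Log2 fold change against control (points) with its standard error (bars) for the 14 protein-coding genes of the class II region, in chromosomal order and not to scale, for WT bleomycin and CB1R KO bleomycin. Members are in bold; the 5 members of the region lie above 0 and H2-Ob lies lowest.

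Ratios of transcripts within a library do not depend on library size. In whole lung, a change in the cells present and a change in the RNA per cell cannot be told apart in a ratio either. They were compared as differences in mean log2 (TPM + 1) with two-sided exact permutation tests, adjusted over 24 tests; 5 passed, 4 of them between WT bleomycin and control. Each of these 4 calls was lost in 10 of 15 alternatives, with estimated counts in place of TPM and without any 1 control or WT bleomycin library (exact permutation tests, adjusted p from 0.0544 to 0.0714), where the log2 difference kept its direction. Fewer libraries raise the smallest p, so the losses with a library left out cannot show that a call rests on single libraries. With 4 libraries against 4 the smallest p is 0.0286, which could not pass here after adjustment (smallest adjusted p = 0.0623), so the comparison of CB1R KO bleomycin with control has values only.

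Among the ratios tested, H2-Ob to H2-DMa shifted the most. This follows from the fall of H2-Ob and the rise of H2-DMa given above, so it is not a separate line of evidence. The TPM ratio of H2-Ob to H2-DMa was 0.429, 0.260, 0.247 and 0.246 in control, 0.132, 0.10, 0.0626, 0.0664 and 0.0737 in WT bleomycin, and 0.152, 0.141, 0.106 and 0.142 in CB1R KO bleomycin libraries. Control libraries lay above all bleomycin libraries. The mean log2 ratio was lower by 1.70 in WT bleomycin than in control (-3.46 ± 0.41, n = 5, against -1.76 ± 0.37, n = 4; exact permutation test, p = 0.00794, the smallest that 5 against 4 allow, adjusted p = 0.0381). CB1R KO exceeded WT bleomycin by 0.64 in this ratio, with overlap of the groups (exact permutation test, p = 0.0317, adjusted p = 0.0635). The ratio of H2-Oa to H2-DMa ran from 0.105 to 0.206 in control and from 0.0524 to 0.10 in WT bleomycin lungs, and its difference (-0.95 on the log2 scale) had an adjusted p = 0.0544 by the exact permutation test.

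H2-DMa rose less than H2-Ab1, while H2-DMb1, the other H2-DM chain, was not set against the I-A chains in a ratio. The TPM ratio of H2-DMa to H2-Ab1 was 0.134, 0.139, 0.156 and 0.140 in control and 0.111, 0.128, 0.113, 0.128 and 0.117 in WT bleomycin libraries, without overlap (log2 difference -0.26, exact permutation test, p = 0.00794, adjusted p = 0.0381). H2-DMa to H2-DMb1 fell as well, from a control range of 1.05 to 1.17 to a WT bleomycin range of 0.861 to 1.02 (log2 difference -0.19, exact permutation test, adjusted p = 0.0381), with the uncertainty of H2-DMb1 given above. Ciita to H2-Ab1 was at 0.0272 to 0.0325 in control and at 0.0139 to 0.0240 in WT bleomycin lungs, again without overlap, although the log2 difference of -0.63 did not pass (exact permutation test, adjusted p = 0.0544).

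One ratio separated the 2 bleomycin groups. The TPM ratio of Cd74 to H2-Ab1 was 2.87, 2.81, 3.14 and 2.97 in control, 2.65, 2.77, 2.72, 2.64 and 2.43 in WT bleomycin, and 3.00, 2.91, 2.82 and 3.04 in CB1R KO bleomycin libraries. WT bleomycin libraries were below all others. The controls, which are WT too, overlapped the CB1R KO bleomycin libraries, so the ratio did not follow genotype as such. Cd74 was set against H2-Ab1 only, so the ratio does not show which of these genes shifted. The log2 ratio was lower by 0.16 in WT bleomycin than in control and higher by 0.15 in CB1R KO than in WT bleomycin (exact permutation tests, each p = 0.00794, adjusted p = 0.0381). The second call, too, held with a pseudocount of 0.1 but was lost in the other 14 alternatives. Estimated counts in place of TPM gave an adjusted p = 0.0544 by the exact permutation test. Without any 1 of the 13 libraries it kept its direction at 0.12 to 0.17. A library left out raises the smallest p of the tests that hold it, and the adjustment passes this on to the others. Without any 1 control library, which this comparison does not hold, its difference (0.15) and unadjusted p (0.00794, exact permutation test) did not change. The losses with a library left out therefore cannot show that the call rests on single libraries.

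Ratios between the chains did not pass the test. H2-Eb1 to H2-Ab1 lay between 0.167 and 0.226 in 12 libraries, and was 0.141 in CB1R KO replicate 11, the deepest library. H2-Aa to H2-Ab1 ranged from 1.02 to 1.30 over all 13 libraries. Its log2 difference of -0.18 between WT bleomycin and control was as large as that of Cd74 to H2-Ab1. It had the lowest p of the 6 tests of these ratios (exact permutation test, p = 0.0556, adjusted p = 0.103). Between CB1R KO and WT bleomycin H2-Aa to H2-Ab1 differed by 0.13 (adjusted p = 0.178 by the same test).

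**Figure D4:**
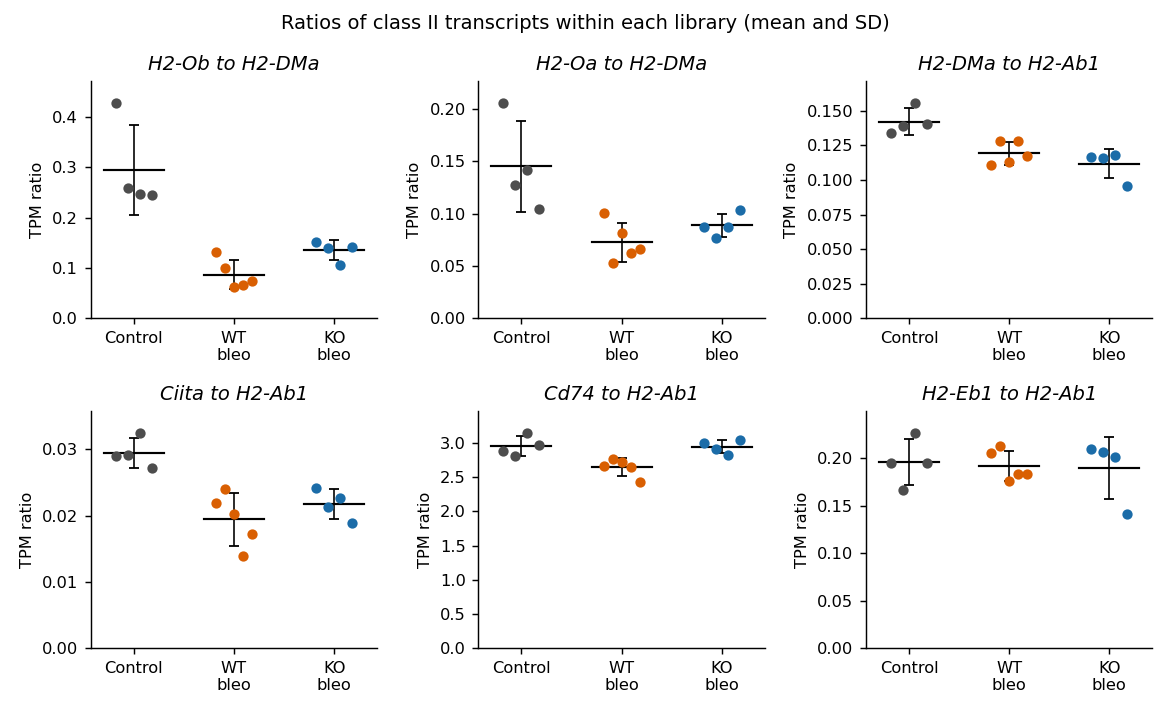
TPM ratios of 6 gene pairs within each library, with axes from 0, for control (4), WT bleomycin (5) and CB1R KO bleomycin (4). Points are libraries, lines are means and bars are SD. H2-Ob to H2-DMa is lower in every bleomycin library than in every control library, and Cd74 to H2-Ab1 is lowest in WT bleomycin.

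Of 7 factors that bind class II promoters, 0 rose and 1 fell in WT bleomycin lungs, and 0 rose and 1 fell in CB1R KO bleomycin lungs against control (medians -0.08 and -0.02). Of all genes tested, 25.0% were called higher and 23.9% lower in WT bleomycin, and 19.0% and 16.3% in CB1R KO bleomycin, against control. Rfx5, the DNA-binding subunit of RFX, was at -0.01 (standard error 0.18) and Nfya, a subunit of NF-Y, at 0.08 (standard error 0.10) in WT bleomycin against control. Creb1 fell there by 0.29 on the log2 scale (adjusted p = 0.00429, edgeR's quasi-likelihood test), and Rfxap fell by 0.31 in CB1R KO bleomycin against control (adjusted p = 0.0275 by the same test).

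Genes between interferon-gamma and Ciita were mixed. Of 9 tested, 4 rose and 1 fell in WT bleomycin against control, where 25.0% of all genes were called higher and 23.9% lower. With 48.9% of all genes called there in either direction, this count does not set the list apart. In CB1R KO bleomycin against control 5 rose and 0 fell, where 19.0% of all genes were called higher and 16.3% lower. In CB1R KO against WT bleomycin 0 were called by edgeR, with 2 at an unadjusted p under 0.05, which 17.0% of all genes reached. Ifngr2, a receptor chain, rose by 0.57 in WT bleomycin, Jak2, its kinase, by 0.31, Spi1, the myeloid factor PU.1, by 0.69 and Socs1, a feedback inhibitor of the pathway, by 0.85 on the log2 scale. Irf1, which binds the interferon-responsive promoter of Ciita, fell by 0.40 (adjusted p = 0.000969, edgeR's quasi-likelihood test). Ifng itself had between 1 and 7.44 estimated counts in 12 libraries and 22.9 in the deepest one, below the limit for testing.

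Of 10 enzymes that process the invariant chain and antigen, 9 rose and 0 fell in each bleomycin group against control (medians 1.36 in WT and 1.15 in CB1R KO, against -0.01 over all genes tested in both). Of all genes tested, 25.0% were called higher in WT bleomycin and 19.0% in CB1R KO bleomycin. Ctss, cathepsin S, which makes the last cuts that leave CLIP, was at 161 to 247 CPM in control, 842 to 934 CPM in WT bleomycin and 746 to 964 CPM in CB1R KO bleomycin lungs, a rise of 2.18 on the log2 scale in WT bleomycin (standard error 0.12, edgeR's quasi-likelihood test, adjusted p = 2.59e-08). Lgmn, the asparagine endopeptidase, rose by 1.46, Ifi30, the lysosomal thiol reductase GILT, by 0.92 and Ctsl, cathepsin L, by 0.45. Sppl2a, which clears the remaining membrane stub of the invariant chain, was at -0.01 (adjusted p = 0.882 by the same test). Between CB1R KO and WT bleomycin 0 of the 10 were called by edgeR, with 4 at an unadjusted p under 0.05, which 17.0% of all genes reached.

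Class II turnover and costimulation split by gene: of 9, 4 rose and 2 fell in WT bleomycin and 4 rose and 1 fell in CB1R KO bleomycin against control. Among all genes tested the shares were 25.0% higher and 23.9% lower in WT bleomycin, and 19.0% and 16.3% in CB1R KO bleomycin. The costimulatory ligands Cd80 and Cd86 rose by 1.42 and 1.44 in WT bleomycin, and Cd83, which protects surface class II from ubiquitination, rose by 0.77 on the log2 scale. Marchf1, the ligase that ubiquitinates class II, was at 0.17 (adjusted p = 0.358, edgeR's quasi-likelihood test), and Icosl, the ligand of ICOS, fell by 0.67 (adjusted p = 0.00114).

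Of 10 genes of MHC class I presentation, 1 rose in WT bleomycin (Psmb8) and 3 rose in CB1R KO bleomycin against control (H2-K1, H2-D1 and Psmb8), with medians of 0.07 and 0.15. The shares of all genes called higher were 25.0% and 19.0%. H2-K1, a class I heavy chain, was at 0.13 in WT bleomycin (interval -0.01 to 0.27) and rose by 0.31 in CB1R KO bleomycin against control (adjusted p = 0.00302, edgeR's quasi-likelihood test). B2m, the class I light chain, was at 0.13 and 0.20 (adjusted p = 0.305 and 0.148). Nlrc5, the class I counterpart of Ciita, was at -0.21 and -0.06 (adjusted p = 0.193 and 0.751).

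Markers of the cells that carry class II moved in different directions, and their part in the class II changes was not tested. For the marker lists below, 25.0% of all genes were called higher and 23.9% lower in WT bleomycin against control. In CB1R KO bleomycin against control these shares were 19.0% and 16.3%. Of 10 B cell markers, 9 fell and 0 rose in WT bleomycin against control (median -1.24; 6 fell without control replicate 3, median -0.86), and 3 fell in CB1R KO bleomycin (median -0.78; 0 to 7 over 24 alternatives, 0 without control replicate 3). Their summed level was 578, 239, 294 and 227 TPM in control, 262, 151, 99.3, 94.2 and 120.2 TPM in WT bleomycin, and 196, 179.6, 219 and 225 TPM in CB1R KO bleomycin libraries, and none of the 10 was at 0 in any library. Control replicate 3 and WT bleomycin replicate 4 had the most B cell marker RNA of their groups, and both also had the highest H2-Ob, H2-Oa and H2-DMb2. The same libraries also had the highest H2-Aa, H2-Ab1 and Cd74 of their groups, so this match was not particular to those genes. WT bleomycin replicate 2, next in B cell markers, had the lowest H2-Oa of its group. Cd79a, a signalling chain of the B cell receptor, fell by 1.35 on the log2 scale in WT bleomycin (adjusted p = 0.00148, edgeR's quasi-likelihood test).

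Of 14 dendritic cell markers, 9 rose and 3 fell in WT bleomycin, and 9 rose and 1 fell in CB1R KO bleomycin against control. Their summed level was 172 to 217 TPM in control, 384 to 410.3 TPM in WT bleomycin and 321 to 419 TPM in CB1R KO bleomycin lungs, without overlap with control. Itgax, Fscn1, Ccl17 and Mgl2, singled out after their values were seen, had the most added TPM in this sum. Their summed mean was 92.3 TPM in control, 296 TPM in WT bleomycin and 248 TPM in CB1R KO bleomycin lungs. The other 10 markers summed to 97.8, 100.2 and 109 TPM. This sum does not show that they were unchanged, since markers among them rose and others fell, such as Flt3 and Clec9a. Flt3, the receptor dendritic cells need for their development, rose by 0.69 in WT bleomycin (adjusted p = 0.000768, edgeR's quasi-likelihood test), close in size to the class II chains. Zbtb46, the factor that marks classical dendritic cells, was at -0.11 (adjusted p = 0.253), and Clec9a, a marker of the cross-presenting subset, fell by 1.14 (adjusted p = 1.02e-05). Itgax rose by 1.14, though macrophages express it too.

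Monocyte-derived and interstitial macrophage markers rose as well: 9 of 10 in both bleomycin groups against control, with a summed level of 307 to 396 TPM in control, 1344 to 1561 TPM in WT bleomycin and 919 to 1529 TPM in CB1R KO bleomycin lungs. C1qa, a complement gene of tissue macrophages, rose by 2.87 on the log2 scale in WT bleomycin (adjusted p = 3.22e-08, edgeR's quasi-likelihood test). Alveolar macrophage markers did not rise (0 of 8 higher and 2 lower in each comparison with control), with Marco at 0.94 and Siglecf at -0.27 (adjusted p = 0.237 and 0.27).

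Type II alveolar cell markers, of cells that carry class II in the mouse, went the other way: 6 of 10 fell and 1 rose in WT bleomycin, 0 fell and 2 rose in CB1R KO bleomycin against control, and 3 were higher in CB1R KO than in WT bleomycin lungs (0.359% of all genes were called higher there and 0.620% lower). Over 24 alternatives this last count was 0 to 8, and it was 0 in 10 of them, among them without WT bleomycin replicate 5, 4-B2 or 7 and without CB1R KO replicate 8, 9 or 11, so each of the 3 calls, that of Sftpc included, was lost there. Sftpc fell by 0.83 in WT bleomycin against control and was higher by 0.66 in CB1R KO than in WT bleomycin (adjusted p = 0.0289, edgeR's quasi-likelihood test). No member of the class II set differed between those groups. T helper cell markers, of the cells that class II molecules address, gave 3 higher and 2 lower of 10 in WT bleomycin; Cd4 was at 0.18 (adjusted p = 0.469) and Cd3e at -0.43 (adjusted p = 0.0891), while Foxp3, the factor of regulatory T cells, rose by 1.74 (adjusted p = 4.11e-05).

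**Figure D5:**
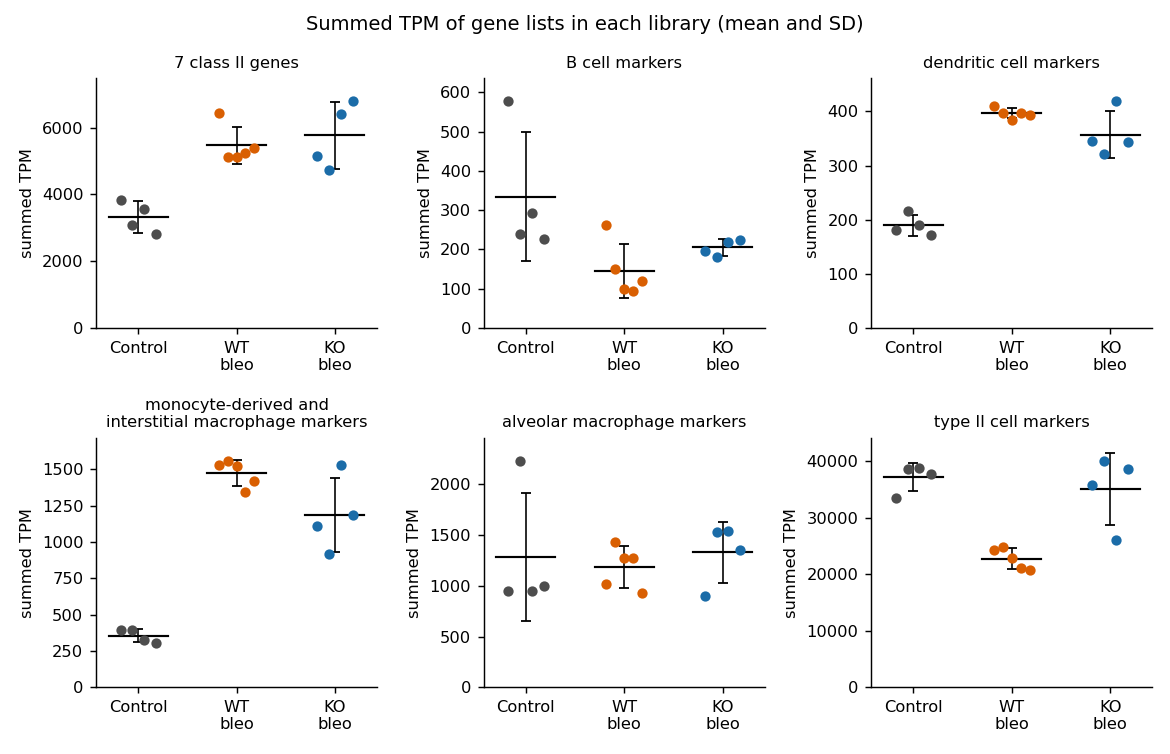
Summed TPM of the 7 class II genes and of 5 marker lists in each library, with axes from 0, by group. Points are libraries, lines are means and bars are SD. Dendritic cell and monocyte-derived macrophage markers are higher in every bleomycin library than in every control library, and B cell markers are highest in control replicate 3.

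Within groups the members rose and fell together from library to library. Over the 13 libraries, each as a deviation of log2 CPM from its group mean, all 21 pairs of members had a positive Pearson r, with a median of 0.68, from 0.39 for H2-Aa with H2-DMb1 to 0.95 for H2-Ab1 with Cd74. The libraries share depth and dissection, and these values are descriptions. The mean standardised deviation of the members was highest in CB1R KO replicate 10 (1.28), control replicate 3 (1.01) and WT bleomycin replicate 4 (0.91), and lowest in CB1R KO replicate 9 (-1.26) and control replicate 26 (-1.24). Against the mean of the other 6 members, Ciita, whose groups overlapped, had r = 0.70 (Spearman's rho 0.74), and the members' r with the mean of the others ran from 0.64 for H2-DMb1 to 0.92 for H2-DMa.

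Among the 15308 genes outside the set, 0.229% had an r above 0.8 with the mean pattern of the members, and the median r was 0.0053. The 10 genes most like it were Stab2 (0.93), Gm12185 (0.91), A530032D15Rik (0.91), Ak5 (0.90), H2-Oa (0.89), H2-M3 (0.88), Dnase1l3 (0.88), Tap1 (0.87), Jak1 (0.86) and Hdac9 (0.85), with Spearman's rho from 0.84 to 0.92. Without the 2 libraries farthest from the median pattern, CB1R KO replicates 10 and 9, these r were 0.77 to 0.92. H2-Oa, which did not rise with bleomycin, thus lay near the members within groups. By list, the median r was 0.78 for the other class II genes, 0.66 for class I genes, 0.62 for B cell markers and 0.55 for T helper cell markers. It was 0.49 for genes between interferon-gamma and Ciita, 0.33 for monocyte-derived macrophage markers and 0.25 for turnover and costimulation. Dendritic cell markers and class II promoter factors had 0.18, processing enzymes 0.17, alveolar macrophage markers -0.05 and type II cell markers -0.45.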

How the data were processed

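RNA of the lower right lung lobe was sequenced in 13 libraries as paired-end NEBNext Ultra II libraries. The authors quantified reads with Kallisto against an Ensembl mouse index (GRCm39 per the labels) and summed protein-coding transcripts per gene. The deposited tables hold estimated counts, not normalized, and TPM, scaled by transcript length and library total. The 13 single-sample files held the same values. A further TPM column (1), labelled as WT bleomycin, matched no sample of the series and was not used.

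Estimated counts were rounded, filtered with filterByExpr (15315 of 20270 genes left) and tested with edgeR 4.0.16 (R 4.3.3, quasi-likelihood F test, TMM, 13 libraries in 3 groups, no covariates), with Benjamini-Hochberg adjustment over all genes tested and a threshold of 0.05. The script was tested on simulated data. Intervals are at the 95% level. Log2 CPM used a prior count of 2. Ratios used log2 (TPM + 1) and two-sided exact permutation tests. The 24 alternatives were a table without a count filter, a minimum of 10 counts per library, normalization by RLE or by upper quartile, DESeq2 1.42.0, limma 3.58.1 on log2 TPM (pseudocounts 1 and 0.1), edgeR on 2 groups, label style (3 labels are capitalised) as a term or lower-case labels only, CB1R KO replicate 11 thinned to 16010926 counts, and each library left out. Ratios, motif searches and plots were made in Python 3.11.15 (numpy 2.4.6, pandas 2.3.3, matplotlib 3.10.9).

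The members and gene lists were chosen with earlier results of these data known. Genes named are the 7 members, the genes of the pathway lists, defining markers and the 10 genes most like the members within groups; Clec9a, Foxp3, Fscn1, Ccl17 and Mgl2 were named after their values were seen, and some genes of the lists are not reported here by name. Sequences are from RefSeq (GRCm38.p6), another build than the authors', so no gene coordinates are given beyond those windows. Shared 31-base words were counted in GENCODE M21. Groups share no replicate number. The labels do not say whether libraries of a group came from separate litters or days, and p-values set group differences against the spread between these libraries only. Depth was even in 12 libraries.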

Additional observations from a re-analysis of the deposited data

Results flagged for a closer look

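In 57 groups of values (11 class II genes and 8 ratios in 3 groups), the library at one end was tested for its distance from the rest by Dixon's criterion, which chance meets in about 1 group of 20. It was met 3 times, always by a ratio. The log2 TPM ratio of H2-Eb1 to H2-Ab1 was -2.82 in CB1R KO replicate 11, against -2.31 to -2.25 in the other libraries of its group. The log2 ratio of H2-DMa to H2-Ab1 was -3.37 in the same library, against -3.09 to -3.07. The log2 ratio of H2-Ob to H2-DMa was -1.20 in control replicate 3, against -1.97 to -1.89, and that library also had the highest summed B cell markers of all (578 TPM).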

How the results depend on the processing

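The number of members called was 6 in WT bleomycin against control (7 with label style as a term, where Ciita passed), 0 in CB1R KO against WT bleomycin, and 6 in CB1R KO bleomycin against control (5 in the 3 alternatives in which H2-DMa was lost). The number of all genes called held within 1.5 times in both comparisons with control. Between CB1R KO and WT bleomycin it was 150, and became 640 with DESeq2, 81 and 3 with limma at pseudocounts of 1 and 0.1, 88 with edgeR on 2 groups, 41 with label style as a term, 6 with lower-case labels only, and 1 (without CB1R KO replicate 9) to 653 (without replicate 10) when a library was left out; the cause was not tested. The number of ratios past the threshold was 5, 0 with estimated counts (the cause was not tested), and 0 to 4 when a library was left out, where fewer libraries raise the smallest p.

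Reversed signs were all of values that did not pass. For CB1R KO against WT bleomycin Ciita was at -0.10 with label style as a term and at -0.078 with lower-case labels only. With a library left out, the log2 fold changes of this comparison ran from -0.019 to 0.14 for Ciita, -0.16 to 0.036 for H2-Ab1, -0.033 to 0.15 for H2-Aa and -0.017 to 0.20 for Cd74. The log2 ratio of Cd74 to H2-Ab1 for CB1R KO bleomycin against control was 0.0047 with counts and -0.026 to 0.028 with a library left out. H2-DMa to H2-DMb1 for CB1R KO against WT bleomycin was 0.0090 with counts and -0.060 to 0.035 with a library left out. H2-Eb1 to H2-Ab1, with a library left out, was -0.10 to 0.044 in WT bleomycin against control, -0.085 to 0.10 in CB1R KO against WT bleomycin and -0.13 to 0.074 in CB1R KO bleomycin against control. No paired analysis was possible because the groups share no replicate number. With 4 or 5 libraries a group, the standard errors of the members between the bleomycin groups were 0.077 (H2-DMb1) to 0.14 (Ciita) on the log2 scale, which limits the differences that could be seen.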
